A study of Solanum lycopersicum with 12 samples.

Results

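Roots and leaves of tomato (Solanum lycopersicum) grown without cadmium (Cd) were compared on Affymetrix tomato arrays. The comparison used 6 of the 12 arrays in the series, namely the 3 titled root control and the 3 titled leaf control, and covered all 10038 probe sets that are not controls. The other 6 arrays carry Cd in their titles, 3 from each organ. They serve below for a repeat of the organ difference, for its comparison with the control difference, and for an alternative fit of all 12 arrays. For the leaf arrays titled Cd, another label states that the leaves received no Cd, so these uses rest on the titles. Both control groups differ in their labels only by organ, and the labels name neither genotype, cultivar, plant age nor growth conditions. Whether the arrays of a group came from separate plants is not stated, so the p-values below reflect only how far these samples spread, which could be a technical spread.

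Roots and leaves of a flowering plant put the same genome to different tasks. Leaf mesophyll cells capture light in chloroplasts, fix carbon dioxide and export sucrose. Roots live on that sucrose, take up mineral ions through transporters at the epidermis, and extend by division and elongation behind the tip. Both organs make defence and wound proteins, whose synthesis responds to salicylic acid, ethylene and jasmonate. Many of the enzymes involved belong to gene families with members that are used in different organs.

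Expression is given as log2 signal relative to the median of the same array, so that 0 is the middle probe set of that array. Levels are listed in the order array 1, 2 and 3 of each organ. A difference is root minus leaf with its standard error (SE), and is positive where the root was higher. Each gene was tested with limma's moderated test across all 10038 probe sets, and adjusted p is the Benjamini-Hochberg value, with a threshold of 0.05. Intervals are 95% intervals of a difference, unadjusted. Before centring, the root medians lay between 7.46 and 7.49 and the leaf medians between 6.88 and 6.89, a shift of 0.59 that centring took off. The 18 hybridization spike probe sets, which are controls, were higher in root as deposited by a median of 0.36 (0.15 to 0.78). Whether the shift is technical was not tested. Without centring, every difference below would be more positive by 0.59, so leaf-higher differences smaller than that turn their sign. This was the case for 52 of the called named genes. The background was the highest of 23 negative control probe sets on an array, and 8833 to 8982 probe sets stood above it. As deposited, the mean background was higher in root by 0.47. After centring it lay at -4.28, -4.12 and -4.09 in the root arrays and at -4.06, -4.12 and -3.95 in the leaf arrays. Where all 3 arrays of an organ were at background, the fold is a lower bound computed from the background level, and for leaf-higher genes, whose bound centring enlarges, it is given as deposited too. Bulk tissue was measured, so fewer cells of a type and less RNA per cell cannot be told apart.

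Arrays of an organ correlated at 0.979 to 0.994 in root and at 0.981 to 0.986 in leaf, and arrays of different organs at 0.847 to 0.888. The organ labels were checked against marker genes. All 8 measured markers of green tissue were above background in both organs, with a mean of 3.55, 3.004 and 4.42 in the root arrays and 5.27, 5.31 and 5.14 in the leaf arrays. Of 8 root markers, 7 to 8 were above background in the root arrays and 5 in every leaf array. Their mean was -0.25, 0.28 and 0.44 in the root arrays and -1.56, -1.57 and -1.47 in the leaf arrays. Among them FER, PT2 and ext1 were higher in root, FRO1 was higher in leaf, and PT1, LKT1 and AMT1-2 did not pass the test. The 2 markers of leaf trichomes were at background in all root arrays, and 1 of them was above it in leaf. Of 5 flower and fruit markers, 1 was above background in root and 2 in leaf. The log2 signal of the actin 3′ probe set less the 5′ one lay between -0.02 and 0.19 in root and between -0.34 and -0.20 in leaf. For ubiquitin it lay between -0.27 and -0.19 in root and between -0.58 and -0.33 in leaf. For GAPDH it was 0.61 on root array 3 and 0.33 and 0.32 on root arrays 1 and 2, against 0.25 to 0.29 in leaf. The ranges of EF1a overlapped, at 1.01 to 1.25 in root and 1.12 to 1.35 in leaf. The part of RNA quality in the results was not tested.

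Expression differed between the organs at 5159 of 10038 probe sets (51.4%), of which 2734 (27.2% of all tested) were higher in root and 2425 (24.2%) higher in leaf. At least 2-fold differences with an adjusted p below the threshold were found at 2114 probe sets (21.1%), with 888 (8.85%) higher in root and 1226 (12.2%) higher in leaf. As deposited, without centring, 6541 probe sets were higher in root and 1070 higher in leaf. Differences of at least 8-fold were found at 171 probe sets (1.7%) in root and 227 (2.26%) in leaf. The 3 arrays of an organ did not overlap with those of the other at 6307 probe sets (62.8%). Present in one organ and at background in the other were 180 probe sets above background on all root arrays and no leaf array, and 183 with the opposite pattern. By contrast, 8381 probe sets were above background on all 6 arrays. The array's annotation names 801 genes, and 453 of these (56.6%) differed, 201 higher in root and 252 higher in leaf, with 261 (32.6%) at least 2-fold. As deposited, 434 named genes were higher in root and 126 in leaf. The gene lists below hold named genes only, of which 25.1% were higher in root and 31.5% in leaf after centring (median difference -0.10). For a list these shares are the closer comparison than those of all probe sets, which lean less to leaf. They apply also where a list below is set beside the shares of all probe sets only. Of the 694 probe sets at background on all 6 arrays, 219 also passed the test. With these 694 left out, 2720 probe sets were higher in root and 2210 in leaf, so the filter removed mainly calls higher in leaf. Genes at background on all 6 arrays are counted below for the cell wall and developmental lists only. The sugar and ethylene lists each held 2 of them, 1 called, and the nitrogen, flavonoid and terpene lists 1 each, called. The jasmonate and gibberellin lists held 1 each and the kinase list 3, none called.

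**Figure D1:**
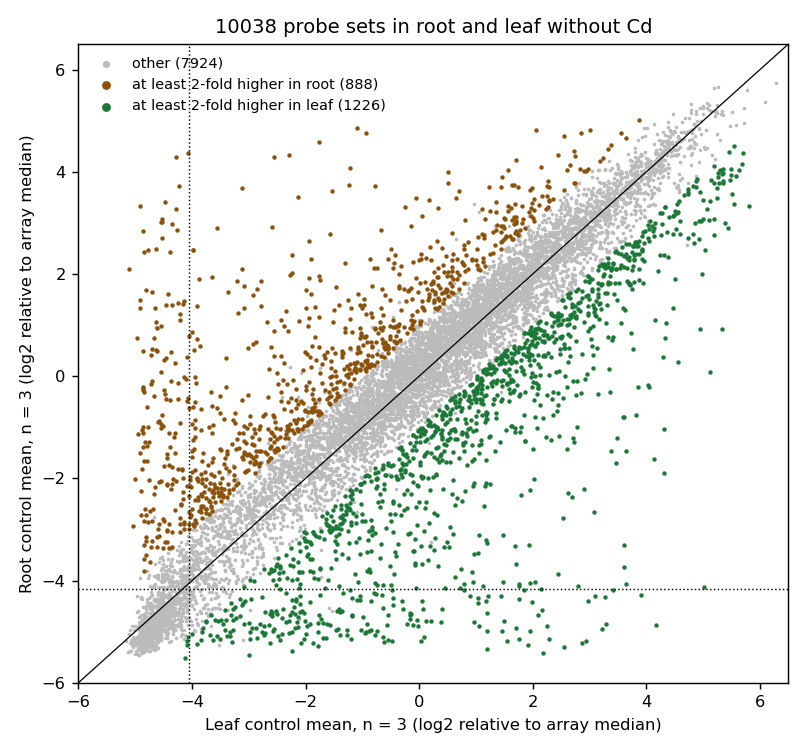
Mean log2 expression of 10038 probe sets in leaf (horizontal axis, 3 arrays) and root (vertical axis, 3 arrays), each relative to its array median. Brown points are the 888 probe sets at least 2-fold higher in root, green points the 1226 at least 2-fold higher in leaf and grey points the rest. The solid line marks equality and dotted lines the mean background of each organ. Brown points along the left dotted line and green points along the lower one were near background in the other organ.

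The named gene with the largest excess in root was ACO5, an isoform of ACC oxidase, the enzyme of the last step of ethylene synthesis. Its levels were 4.12, 4.82 and 3.90 in the root arrays and -4.25, -4.23 and -4.35 in the leaf arrays. All leaf values were at background, so the root level was at least 321-fold higher (adjusted p = 2.50e-06). ST1, a high-affinity sulfate transporter, came next, with 3.20, 3.35 and 3.69 in the root arrays and -4.34, -4.42 and -4.69 in the leaf arrays. The leaf arrays were again at background, which puts the root at least 176-fold higher (adjusted p = 1.25e-06). FER, a basic helix-loop-helix factor that switches on iron uptake in roots, had levels of 2.69, 2.87 and 2.57 in the root arrays and -4.44, -4.55 and -4.61 in the leaf arrays. It was thus among the genes measured in root and at background in leaf, at least 108-fold higher in root (adjusted p = 9.97e-07). NRAMP1, a metal ion transporter of the NRAMP family, was at least 23.3-fold higher in root (adjusted p = 2.50e-05). Its levels were -0.039, 0.54 and 0.98 in the root arrays and -4.98, -4.67 and -4.92 in the leaf arrays, so root array values spread over more than a log2 unit and stayed well apart from leaf.

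TIP, a water channel of the vacuolar membrane also listed as RB7, was measured in both organs, at 4.38, 4.26 and 4.25 in the root arrays and -3.56, -2.35 and -1.73 in the leaf arrays. The groups did not overlap and the difference was 6.84 ± 0.43 (adjusted p = 8.11e-05), or 115-fold. ADH2, the alcohol dehydrogenase of ethanol fermentation, had levels of 4.29, 4.61 and 4.07 in the root arrays and -3.49, -1.87 and -1.51 in the leaf arrays. Its difference of 6.62 ± 0.50 (adjusted p = 0.000176) was 6.02 without leaf array 1, the lowest leaf value. MT2, a metallothionein and so a small cysteine-rich metal-binding protein, had 4.87, 5.04 and 4.68 in the root arrays and -0.85, -2.19 and -0.25 in the leaf arrays. Root arrays were near each other and all leaf arrays were lower, with a difference of 5.96 ± 0.47 (adjusted p = 0.000202). XTH6, which cuts and rejoins xyloglucan chains of the cell wall, differed by 6.45 ± 0.19 (adjusted p = 3.41e-06). TPX2, a secreted class III peroxidase, was at least 43.2-fold higher in root, with 1.60, 1.30 and 1.25 in the root arrays and -4.25, -4.35 and -4.47 in the leaf arrays. The remaining genes among the 15 largest root excesses were opr2, a reductase of the family that acts in jasmonate synthesis, at 5.15, and 5 genes at background in leaf. These were the polyphenol oxidase LOC606710 (at least 22.1-fold), Mdip1 (at least 133-fold), LysRS (50.7-fold), LOC543896 (20.6-fold) and Dif54 (13.7-fold). Further probe sets of LOC606710 gave differences of 3.18, 2.85 and 0.54. All 15 genes had 3 root values above 3 leaf values, as the rule for choosing them asks.

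The largest excess in leaf belonged to LOC543989, a gene without a description in the annotation, with -5.02, -4.78 and -5.03 in the root arrays and 3.66, 3.29 and 2.73 in the leaf arrays. Root values were at background, so the leaf level was at least 167-fold higher (at least 111-fold as deposited, adjusted p = 3.07e-06). A second probe set of this gene gave a difference of -8.08. CEVI-1, a peroxidase first described in viroid-infected tomato, had -5.35, -5.06 and -5.15 in the root arrays and 3.41, 2.20 and 3.23 in the leaf arrays. Its leaf level was at least 138-fold higher (91.6-fold as deposited, adjusted p = 9.55e-06). The subtilisin-like protease sbt4a was at background in root and at 2.66, 2.98 and 2.01 in leaf, at least 105-fold higher (69.5-fold as deposited, adjusted p = 3.95e-06). These 3 genes were at background on every root array and well above it on every leaf array.

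PR1b1 and P4, defence proteins of the PR-1 family, were both far higher in leaf. PR1b1 had -1.41, -1.95 and -2.31 in the root arrays and 4.59, 3.75 and 4.57 in the leaf arrays, a difference of -6.19 ± 0.31 (adjusted p = 3.01e-05). A second probe set of PR1b1 differed by only -0.40 and did not pass the test. P4 had -4.07, -4.14 and -3.89 in the root arrays and 2.58, 0.60 and 2.93 in the leaf arrays, with root values around background and leaf array 2 below the other leaf arrays, so the difference of -6.07 became -6.79 without that array. PR-P2, a chitin-binding protein of the PR-4 family, varied widely in leaf, at 3.56, -1.26 and 2.80. Its difference of -5.38 ± 1.20 (adjusted p = 0.0107) was -4.45 without leaf array 1 and -6.86 without leaf array 2. TSW12, a lipid transfer protein, differed by -5.23 ± 0.30 and the chitinase CHI17 by -5.05 ± 0.36 (adjusted p = 5.24e-05 and 0.00013). Wall-related genes were also among the 15, with XTH7 at -6.02 and the expansin EXP5 at -5.23. LOC544276, listed with the synonym ICL, differed by -4.92 ± 0.51. LOC543604 differed by -5.52 ± 0.32, and LOC543656, LOC544001 and Prg1, at background in root, completed the 15. They were at least 87, 58.5 and 19-fold higher in leaf (57.8, 38.9 and 12.6-fold as deposited). LOC544001 was uneven in leaf, at 4.56, 1.85 and -1.29, and its difference of -6.64 became -5.21 without leaf array 1 and -8.14 without leaf array 3.

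**Figure D2:**
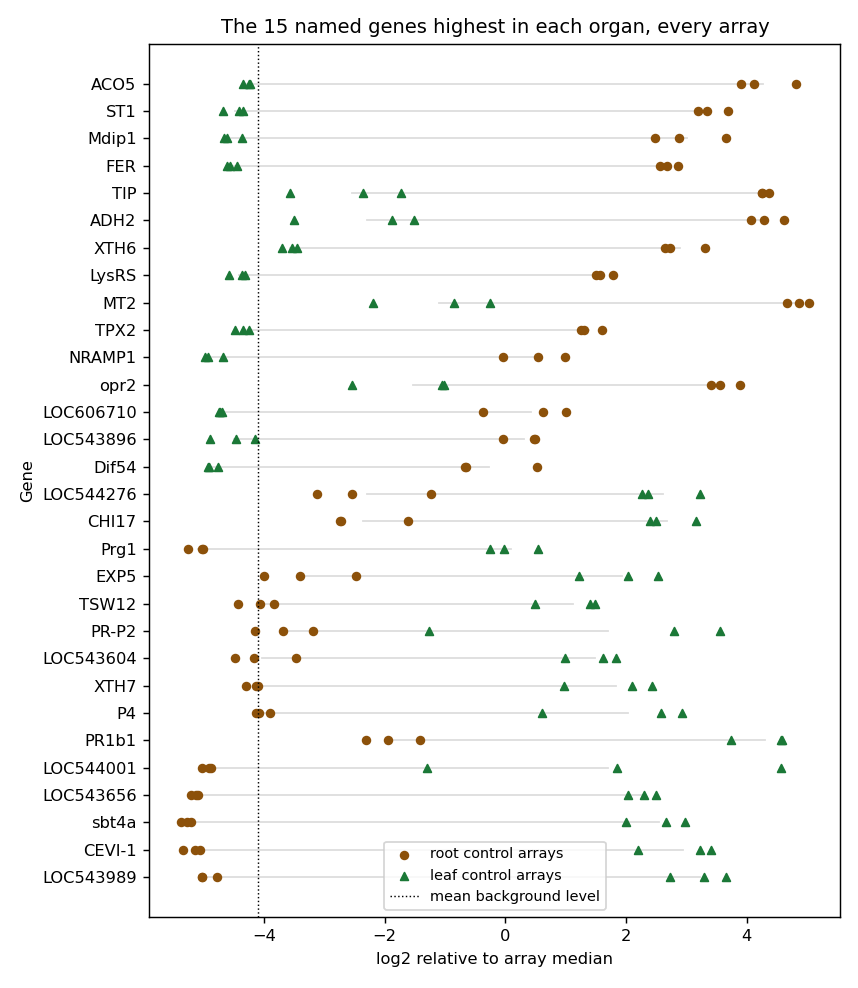
Log2 expression relative to the array median (horizontal axis) on each of the 3 root arrays (brown circles) and 3 leaf arrays (green triangles) for the 15 named genes with the largest excess in each organ (vertical axis). The dotted line is the mean background level over the 6 arrays. ACO5, ST1, Mdip1 and FER lay at or left of that line on every leaf array, and LOC543989, CEVI-1, sbt4a and LOC543656 on every root array.

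Photosynthesis genes were higher in leaf throughout the list of 9 that the annotation names, against 24.2% of all probe sets. The list's median difference was -1.41, against 0.042 over all probe sets. As deposited, 7 of the 9 were higher in leaf past the threshold. CAB4, which encodes a chlorophyll a/b-binding protein of the light-harvesting antenna, had 3.32, 2.40 and 4.39 in the root arrays and 5.55, 5.56 and 5.51 in the leaf arrays. Every root value was below every leaf value, and the difference was -2.17 ± 0.46 (adjusted p = 0.00896), or 4.5-fold. Transcripts of the oxygen-evolving complex at photosystem II differed less, by -1.55 ± 0.33 for PsbQ, -1.41 ± 0.31 for PSBP and -1.06 ± 0.22 for PSBO. LOC543978, subunit D of photosystem I, differed by -1.36 and PETE, the copper protein plastocyanin, by -1.27. PSBR, a further photosystem II subunit, had the smallest difference, -0.47 ± 0.092 (adjusted p = 0.00627), which turns to 0.12 as deposited.

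These transcripts were also above background on every root array. PSBO had 4.24, 4.05 and 4.89 in root beside 5.50, 5.49 and 5.36 in leaf. Root array 3 was the highest root array and root array 2 the lowest for the mean of the 8 green-tissue markers. The antenna gene CAB5 showed this most, with 0.84, -0.59 and 3.03 in the root arrays and 4.13, 4.47 and 3.87 in the leaf arrays. Its difference of -3.06 ± 0.84 (adjusted p = 0.023) was -2.22 without root array 2 and -4.03 without root array 3. It did not pass the test without root array 1, leaf array 1 or leaf array 2 (adjusted p = 0.0732, 0.0575 and 0.0683). The labels do not say whether the roots were exposed to light, and the part of light or of green tissue in these root levels was not tested. Root array 3 also had the lowest mean correlation with the other root arrays, 0.982 against 0.990 and 0.987 for root arrays 1 and 2. Its limma array weight was 0.35, against 5.40 and 1.05. The part of array or RNA quality in its levels was not tested either.

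Among 18 genes of carotenoid and isoprenoid synthesis, 9 were higher in leaf, 2 in root and 7 did not pass the test (median -0.36), against 24.2% higher in leaf and 27.2% in root over all probe sets. As deposited, 7 higher in root and 5 in leaf passed the test. CRTL-E-1, the lycopene epsilon-cyclase that leads to lutein, had -1.35, -1.64 and 0.021 in the root arrays and 1.88, 2.15 and 1.35 in the leaf arrays. It had the largest leaf excess of the list, with a difference of -2.78 ± 0.45 (adjusted p = 0.00322). ISPE and HDS, enzymes of the plastid pathway to isoprenoid precursors, differed by -1.42 and -1.12, and VDE, the violaxanthin de-epoxidase that protects leaves in strong light, by -1.23. The exceptions were the genes known from ripening fruit. Psy1, the phytoene synthase of fruit, was higher in root by 1.78 ± 0.20 (adjusted p = 0.00084), with other probe sets of it at 1.47 and 0.28, the last not past the threshold. NSY, also listed as Cyc-B and known as a lycopene beta-cyclase of fruit chromoplasts, was higher in root by 1.93 ± 0.21 (adjusted p = 0.000755). PSY2, the phytoene synthase of green tissue, was higher in leaf by a difference of -0.66 ± 0.14.

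Of 12 genes that perceive or relay light, 4 were higher in root, 3 in leaf and 5 not past the threshold, near the 27.2% and 24.2% of all probe sets. Uncentred, 7 higher in root and 0 in leaf passed it. HY5, a bZIP factor that promotes light responses, had 2.27, 2.52 and 2.04 in the root arrays and 0.034, -0.22 and 0.17 in the leaf arrays. Root values all exceeded leaf values, by 2.28 ± 0.17 (adjusted p = 0.000143). PHYA, the phytochrome that senses far-red and very weak light, was likewise higher in root by 2.26 ± 0.10 (adjusted p = 1.32e-05). COP1, which marks HY5 protein for destruction, was higher in root by 0.64 ± 0.12. Among cryptochromes, which sense blue light, CRY1A was higher in leaf (-0.73 ± 0.10), while CRY2 differed by -0.12 and did not pass the test (95% interval -0.35 to 0.12).

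Of 13 genes of mineral nutrition, 4 were higher in root and 3 in leaf, near the 27.2% and 24.2% of all probe sets. The other 6 did not pass the test. Uncentred, 10 higher in root and 1 in leaf passed it. All 4 root genes were at background in leaf. Beside ST1, FER and NRAMP1, PT2, a phosphate transporter, had -2.38, -0.41 and -1.08 in the root arrays and -4.90, -4.67 and -4.92 in the leaf arrays. It was at background in leaf and at least 6.74-fold higher in root (adjusted p = 0.0015). ST2, the other sulfate transporter on the array, ran the opposite way with -3.88, -4.60 and -3.81 in the root arrays and -0.84, -0.39 and -0.69 in the leaf arrays and a difference of -3.45 ± 0.24 (adjusted p = 0.000121). FRO1, an iron-chelate reductase, was also higher in leaf, at 1.63, 0.80 and -0.012 against -4.36, -1.65 and -0.71 in root. The root values of FRO1 were uneven, and its difference of -3.04 ± 0.94 (adjusted p = 0.0343) was -1.98 without root array 1 and -3.81 without root array 3. Without root array 2, leaf array 1 or leaf array 2 it did not pass the test (adjusted p = 0.0581, 0.0983 and 0.0826).

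Transporters without a difference past the threshold were PT1 at 0.26 (95% interval -0.20 to 0.72), the potassium channel LKT1 at 0.28 (-0.29 to 0.84), the ammonium transporter AMT1-2 at 0.31 (-0.14 to 0.76) and NRAMP3 at 0.25 (0.011 to 0.48). All of these were above background in both organs. The 5 metallothioneins split into 2 (40%) higher in root and 3 (60%) higher in leaf after centring. The shares of all probe sets were 27.2% and 24.2%, and those of named genes 25.1% and 31.5%. As deposited 2 metallothioneins higher in root and 0 in leaf passed the test. MT2 led those higher in root, and MT3 had 3.60, 4.48 and 3.93 in the root arrays and -1.30, 0.97 and 1.87 in the leaf arrays. Leaf array 1 was lowest for MT3, and its difference of 3.49 ± 0.77 (adjusted p = 0.0105) was 2.58 without it and 4.17 without leaf array 3. MTA was higher in leaf by a difference of -0.94 ± 0.14 (adjusted p = 0.00259). LEMT1 (-0.58 ± 0.10) and MT4 (-0.40 ± 0.12) turn their sign as deposited, and other probe sets of MT4 gave 0.80, 0.18 and -0.12. MT4 (adjusted p = 0.0268) did not pass the test without root array 1, root array 2, leaf array 1 or leaf array 3 (adjusted p = 0.0888, 0.0899, 0.0735 and 0.0769).

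Of 9 genes of nitrogen assimilation and amino acid synthesis 4 were higher in root and 4 in leaf, and as deposited 4 higher in root and 2 in leaf. Each share of 44.4% after centring stood beside 27.2% in root and 24.2% in leaf over all probe sets. The glutamine synthetases, which join ammonium to glutamate, were divided. The gene gts1 was higher in root, at 3.45, 3.92 and 3.72 in the root arrays and 0.83, 2.10 and 2.28 in the leaf arrays. The groups were apart by 1.96 ± 0.38 (adjusted p = 0.00655), and a second probe set gave 1.79. GS2, the chloroplast form that recaptures ammonium from photorespiration, differed by -0.92 ± 0.19 (adjusted p = 0.00875) in favour of leaf. Glutamate dehydrogenase, gdh1, was higher in root by 1.16 ± 0.16. In the GABA shunt 3 of 6 genes were higher in leaf and none in root after centring, against 24.2% and 27.2% of all probe sets. As deposited, 3 higher in root and 3 in leaf passed the test. The leaf genes included the transaminase GABA-TP2 (-2.92 ± 0.41) and the glutamate decarboxylase gad2 (-1.36 ± 0.22). The transaminases GABA-TP1 and GABA-TP3 differed by 0.28 and 0.40 and did not pass the test. Of 7 amino acid and peptide transporters, ProT2 (-3.08 ± 0.38) and AAP3 (-0.79 ± 0.14) were higher in leaf after centring, a share near the 24.2% of all probe sets. As deposited, 3 higher in root and 1 in leaf passed the test.

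Sugar metabolism was divided between the organs, with 10 of 21 genes (47.6%) higher in root and 7 (33.3%) in leaf. Over all probe sets the shares were 27.2% and 24.2%, and over named genes 25.1% and 31.5%, so the leaf share was near that of named genes. The list median was -0.079, and 4 genes were not past the threshold. As deposited, 12 higher in root and 4 in leaf passed the test. LOC543961, a sucrose synthase listed as SUS1, had 1.47, 2.25 and 1.33 in the root arrays and -2.34, -1.63 and -1.98 in the leaf arrays. The organs were far apart, by 3.67 ± 0.29 (adjusted p = 0.000211) or 12.7-fold. A further sucrose synthase, sus3, was higher in root by 1.92 ± 0.16, and the fructokinases FRK1 and FRK2, which phosphorylate the released fructose, by 1.47 ± 0.19 and 1.47 ± 0.13. The hexose transporter HT3 and the sucrose transporter SUT4 were also higher in root, by 1.70 and 0.97. SPS, the sucrose phosphate synthase that makes sucrose for export, was higher in leaf, with a difference of -1.13 ± 0.16 (adjusted p = 0.00184). HT2 (-2.12), the invertase LIN8 (-1.66) and the plastid fructokinase FRK3 (-1.37) were higher in leaf as well.

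Of 4 starch genes, the large subunits AGPL3 and AgpL1 of ADP-glucose pyrophosphorylase were higher in leaf, with differences of -2.67 ± 0.39 and -2.28 ± 0.43 (adjusted p = 0.00226 and 0.00583). The small subunit AGP-S2 of the same enzyme differed by 0.22 (95% interval -0.035 to 0.48) and did not pass the test. The starch list thus held 2 (50%) higher in leaf and 0 in root, against 31.5% and 25.1% of named genes. As deposited, 2 starch genes higher in leaf and 1 in root passed the test. In energy metabolism 6 of 13 genes were higher in leaf and ADH2 in root after centring, against 24.2% and 27.2% of all probe sets. As deposited, 3 higher in root and 3 in leaf passed the test. The leaf group held LOC544276 and the malic enzyme ME2 (-1.22 ± 0.16), while the cytosolic malic enzyme ME1 differed by 0.061 (95% interval -0.33 to 0.45) and did not pass the test.

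**Figure D3:**
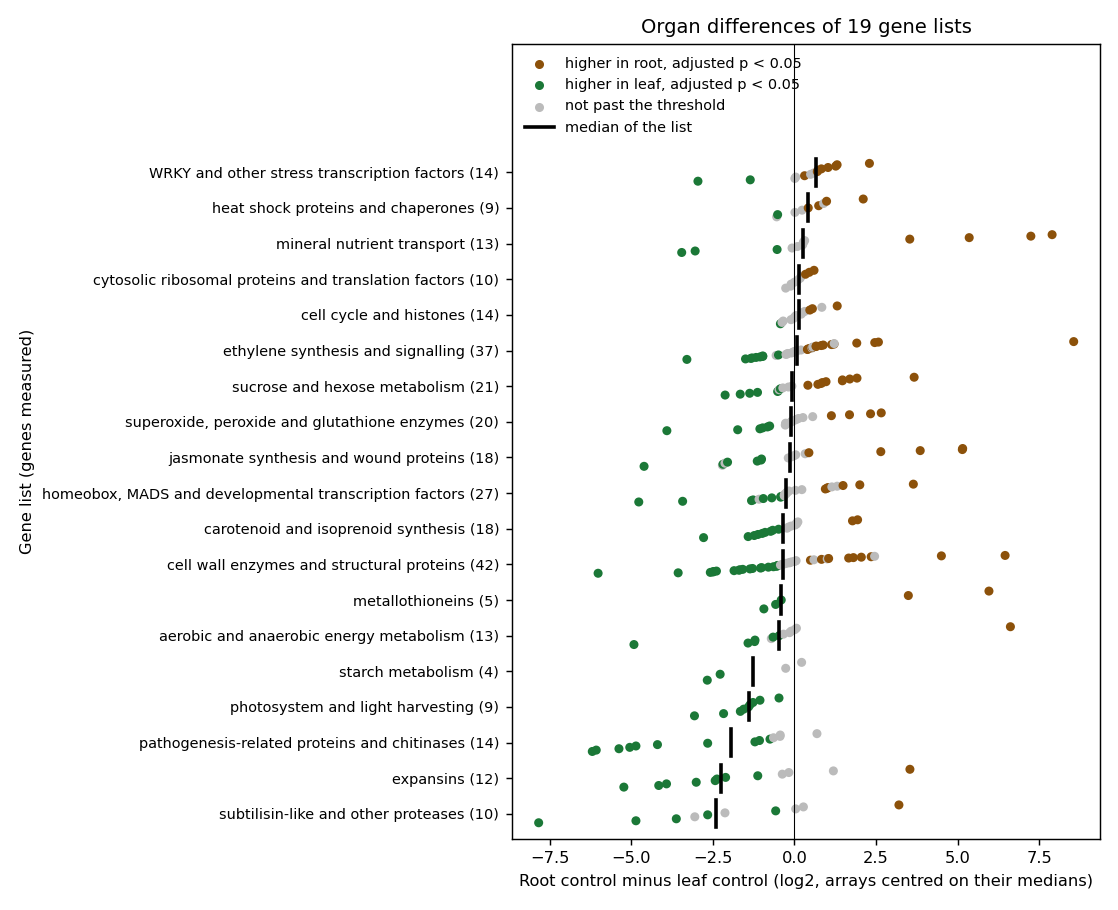
Root minus leaf difference (log2, horizontal axis) of each gene in 19 gene lists (vertical axis, number of genes measured in parentheses), sorted by the list median, which the black bars mark. Brown and green points passed an adjusted p of 0.05 with the higher level in root or leaf, and grey points did not pass it. All 9 photosystem genes lay to the left of 0, while the mineral transport list held large differences on both sides.

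Of 14 pathogenesis-related proteins and chitinases, 10 were higher in leaf, none in root and 4 did not pass the test (median -1.93), against 24.2% higher in leaf and 27.2% in root over all probe sets. As deposited, 1 higher in root and 7 in leaf passed the test. Beside PR1b1, P4, PR-P2 and CHI17, the protease P69A had -4.82, -4.95 and -4.88 in the root arrays and -0.053, 0.23 and -0.25 in the leaf arrays. It was at background in root and at least 17.6-fold higher in leaf (11.7-fold as deposited, adjusted p = 3.07e-06). The chitinase CHI3 differed by -4.20 ± 0.56, or -3.58 without leaf array 1. Members without a difference past the threshold were the glucanase GluB at -0.44 (95% interval -1.13 to 0.25) and the osmotin-like NP24-I at -0.43 (-1.12 to 0.25). Both stood above background in either organ.

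Jasmonate and wound genes, 18 in all, held 5 (27.8%) higher in root and 6 (33.3%) in leaf. Over all probe sets these shares were 27.2% and 24.2%, and over named genes 25.1% and 31.5%, so the leaf share was near that of named genes. The other 7 genes were not past the threshold. Uncentred, 7 higher in root and 6 in leaf passed it. Lipoxygenases, which oxidise fatty acids at the start of the pathway, differed by member. LOX1.1 had 1.88, 1.43 and 2.45 in the root arrays and -3.01, -1.11 and -1.68 in the leaf arrays and was higher in root by 3.85 ± 0.51 (adjusted p = 0.00148). TomloxE was likewise higher in root (2.65 ± 0.42). The lipoxygenase loxC, which makes precursors of green-leaf volatiles, was at background in root and at least 2.58-fold higher in leaf (1.71-fold as deposited). HPL, the lyase that acts on such precursors, was higher in leaf too (-2.19 ± 0.24). The chloroplast enzyme AOC of jasmonate synthesis was higher in leaf (-1.14 ± 0.15), as was OPR3, the peroxisomal reductase of the pathway (-1.01 ± 0.14). The related reductase opr2 was 35.6-fold higher in root, at 3.40, 3.90 and 3.56 in the root arrays and -1.04, -2.55 and -1.01 in the leaf arrays.

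Several wound proteins varied among the leaf arrays. TD2, a threonine deaminase that impairs digestion in leaf-eating insects, had -2.96, -3.29 and -3.52 in the root arrays and 3.53, -0.9997 and -1.89 in the leaf arrays. Leaf array 1 was far above the other leaf arrays, and the difference of -3.47 ± 1.33 did not pass the test (adjusted p = 0.068). ARPI, at background in root, had leaf levels of 2.04, -1.09 and -2.59, at least 12.3-fold higher in leaf (8.13-fold as deposited). Its difference of -4.61 (adjusted p = 0.0129) was -3.32 without leaf array 1 and -5.63 without leaf array 3. The leucine aminopeptidase LAPA1 had 1.52, -2.27 and -1.95 in leaf and the ribonuclease RNALE 1.11, -2.27 and -1.14. For all 4 genes leaf array 1 was the highest. The difference of RNALE, -3.50 ± 0.79 (adjusted p = 0.0114), was -2.56 without that array and -4.25 without leaf array 2, and that of LAPA1, -2.13 ± 0.96, did not pass the test (adjusted p = 0.108).

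The same leaf array was the lowest leaf array for the homeobox genes KN1, KN4 and T6. KN1 and T6, of a family that keeps shoot meristem cells undifferentiated, had -4.76, -1.32 and -0.999 (KN1) and -3.23, -1.29 and -0.58 (T6) in the leaf arrays. T6 was at background on all root arrays and at least 5.52-fold higher in leaf (3.67-fold as deposited). Its difference was -3.43 ± 0.63 (adjusted p = 0.0052), or -4.19 without leaf array 1. KN1 had -0.97, -1.78 and -0.41 in root and did not pass the test (1.31 ± 1.001, adjusted p = 0.31). Leaf array 3 was highest for the replication clamp PCNA, at 0.51, 0.99 and 2.62, and for the mitotic kinase CDKB2, at -0.99, -0.11 and 1.76. Over the 14 cell-cycle and histone genes the mean level was -0.52, -0.03 and 0.53 in the leaf arrays and 0.32, 0.27 and -0.024 in the root arrays. Among named genes, 46 had a leaf standard deviation of at least 1 log2 unit, and 27 of these were highest on leaf array 3 and 17 on leaf array 1. In root 21 genes did, of which 15 were highest on root array 3. The reason for these spreads was not tested, and the genes in this paragraph and the one before were partly chosen after their values were seen.

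**Figure D4:**
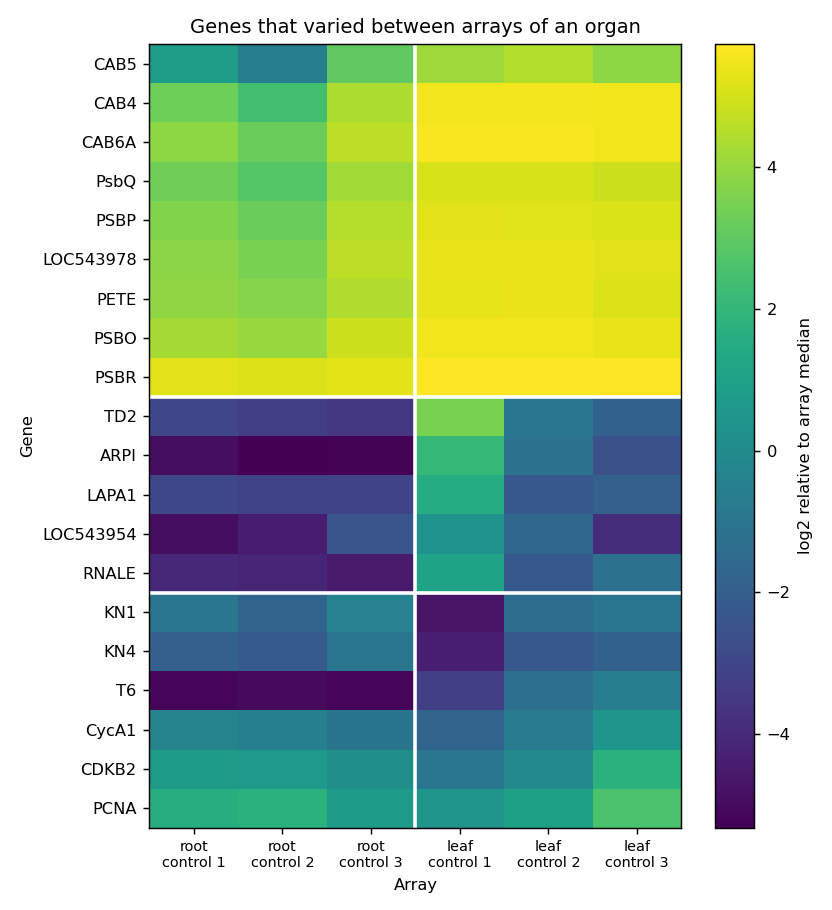
Log2 expression relative to the array median (colour) of 20 genes (rows) on the 3 root and 3 leaf arrays (columns), in blocks of photosynthesis, wound and meristem or division genes separated by white lines. Photosynthesis genes were lowest on root array 2 and highest among root arrays on root array 3, wound genes were highest on leaf array 1, and KN1, KN4 and T6 were lowest among leaf arrays on leaf array 1.

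Ethylene genes formed the largest hormone list. Of 37, 14 (37.8%) were higher in root and 9 (24.3%) in leaf, against 27.2% and 24.2% of all probe sets. The list median was 0.075, and 14 genes were not past the threshold. Uncentred, 24 higher in root and 6 in leaf passed it. Synthesis enzymes held the extremes. Opposite to ACO5, the ACC oxidase ACO6 had 0.83, 0.96 and 1.34 in the root arrays and 4.43, 4.38 and 4.21 in the leaf arrays. The leaf was higher by a difference of -3.30 ± 0.16 (adjusted p = 2.28e-05), and further probe sets of it gave -5.03 and -4.57. The ACC synthase ACS1A, which makes the ethylene precursor, was higher in root by 2.57 ± 0.38 (adjusted p = 0.00219). Among receptors, ETR6 had 0.51, 0.80 and 0.43 in the root arrays and -1.18, -2.35 and -2.11 in the leaf arrays, a difference of 2.46 ± 0.31 (adjusted p = 0.00124). ETR5 was higher in root by a smaller amount, 0.46 ± 0.11, and ETR4 differed by -0.014 without passing the test (95% interval -0.49 to 0.46). The response factor ERF2 was higher in root (1.91 ± 0.19), and PTI4 in leaf (-0.97 ± 0.10).

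Of 8 gibberellin genes 4 were higher in root and 2 in leaf, and as deposited 5 higher in root and 2 in leaf. Over all probe sets 27.2% were higher in root and 24.2% in leaf. The 3 gibberellin 20-oxidases, which make the precursors of active gibberellins, did not share a direction. GA20OX1 had -2.58, -2.57 and -2.40 in the root arrays and 0.85, 0.84 and 0.21 in the leaf arrays and was higher in leaf, with a difference of -3.15 ± 0.19 (adjusted p = 6.71e-05). 20ox-2 had -2.11, -1.69 and -2.20 in the root arrays and -4.46, -3.69 and -4.33 in the leaf arrays and was higher in root by 2.16 ± 0.24 (adjusted p = 0.000814), and 20ox-3 by 2.05 ± 0.44. Both were near background in leaf, above it on 1 and 2 leaf arrays. In the auxin list of 8, 1 gene was higher in root and 2 in leaf after centring, and 6 higher in root and 1 in leaf as deposited. After centring these were 12.5% and 25% of the list, against 25.1% and 31.5% of named genes. IAA2, a repressor of auxin responses, was higher in root (2.19 ± 0.27), and IAA7 (-1.28 ± 0.30) and IAA16 (-1.11 ± 0.15) were higher in leaf. Among 16 genes of abscisic acid and dehydration, as deposited, 7 were higher in root and 3 in leaf. After centring the shares of named genes were 25.1% and 31.5%, and those of all probe sets 27.2% and 24.2%. Near the former shares, 4 of the 16 (25%) were higher in root and 5 (31.25%) in leaf. Those in leaf included the lipid transfer proteins TSW12, ltpg1 (-4.01 ± 0.40) and LE16 (-3.88 ± 0.33). In root they included AREB1, a bZIP factor of abscisic acid responses (1.27 ± 0.16), and TAO3, an aldehyde oxidase (2.47 ± 0.18).

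Expansins, which loosen cell walls during growth, were mostly higher in leaf, 8 of 12 against 1 in root (median -2.24). Over all probe sets 24.2% were higher in leaf and 27.2% in root. As deposited, 2 higher in root and 7 in leaf passed the test. EXP5 had -3.40, -4.0004 and -2.48 in the root arrays and 1.22, 2.03 and 2.54 in the leaf arrays. Leaf values were all above root values by a difference of -5.23 ± 0.47 (adjusted p = 0.000351). EXPA4 and EXP2 differed by -4.16 ± 0.34 and -3.92 ± 0.19 (adjusted p = 0.000242 and 2.50e-05). EXPA8 was the one expansin higher in root, at -0.58, -0.43 and -2.02 in the root arrays and -4.68, -4.49 and -4.47 in the leaf arrays. It was at background in leaf, which gives at least 8.2-fold (adjusted p = 0.000951). EXP1, known from ripening fruit, differed by -0.17 (95% interval -1.73 to 1.39) and did not pass the test.

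Of 42 other cell wall genes 9 (21.4%) were higher in root, 19 (45.2%) in leaf and 14 did not pass the test. Over all probe sets 27.2% and 24.2% were higher in root and leaf. Of the 42, 10 were at background on all arrays, of which 4 were among the calls. As deposited, 16 higher in root and 12 in leaf passed the test. XTH7 had -4.13, -4.10 and -4.30 in the root arrays and 0.97, 2.44 and 2.10 in the leaf arrays, opposite to XTH6 with 3.31, 2.65 and 2.72 in the root arrays and -3.53, -3.70 and -3.45 in the leaf arrays. Their differences were -6.02 ± 0.36 and 6.45 ± 0.19. XET2 was higher in leaf (-3.56 ± 0.41) and XET4 in root (2.05 ± 0.29). The galactosidases TBG3 and TBG4 were higher in root (1.81 and 1.05), and TBG7 and TBG5 in leaf (-2.49 and -1.58). The extensin ext1, a structural wall protein, had -2.27, -3.14 and -1.52 in the root arrays and -4.67, -4.52 and -4.79 in the leaf arrays. It was at background in leaf and at least 3.33-fold higher in root (adjusted p = 0.00329). TPRP-F1, a proline-rich wall protein, was higher in root by 4.50 ± 1.06 (adjusted p = 0.0132). Its leaf levels of -3.24, -0.47 and 1.37 were uneven, and the difference was 3.27 without leaf array 1 and 5.58 without leaf array 3.

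Enzymes that handle superoxide, peroxide and glutathione numbered 20, of which 4 (20%) were higher in root and 6 (30%) in leaf. These shares were near the 25.1% and 31.5% of named genes (27.2% and 24.2% of all probe sets). The other 10 were not past the threshold. Uncentred, 13 higher in root and 3 in leaf passed it. SODCP.2, which removes superoxide in chloroplasts with copper and zinc, had 0.37, 0.35 and 0.42 in the root arrays and 4.34, 4.45 and 4.08 in the leaf arrays. The leaf exceeded the root by a difference of -3.91 ± 0.12 (adjusted p = 3.98e-06). The cytosolic copper-zinc form SODCC.1 differed by -0.088 (95% interval -0.37 to 0.19) and did not pass the test. DHAR1, which regenerates ascorbate, was higher in leaf (-1.74 ± 0.24), as was CCS, the copper chaperone of superoxide dismutase (-0.97 ± 0.12). GST-T4, a glutathione S-transferase (1.69 ± 0.30), and GPXle-1, a glutathione peroxidase (1.13 ± 0.14), were higher in root.

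Of 9 flavonoid and phenylpropanoid genes 5 were higher in leaf and 3 in root, against 24.2% and 27.2% of all probe sets, and as deposited 3 higher in root and 1 in leaf. CHS2, a chalcone synthase at the entry to flavonoids, had -3.85, -3.79 and -1.84 in the root arrays and -0.21, 0.16 and 0.86 in the leaf arrays. Root array 3 was the highest root array, and the difference of -3.43 ± 0.58 (adjusted p = 0.00384) was -4.09 without it. The hydroxycinnamoyl transferases THT7-8 and THT1-3, which attach phenolic acids to tyramine, were higher in root by 2.18 ± 0.19 and 2.06 ± 0.40. SSTLE1, a sesquiterpene synthase of leaf trichomes, was at background in root and at least 6.65-fold higher in leaf (4.42-fold as deposited, adjusted p = 0.000198).

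Transcription factors of development, 27 on the array, included 10 at background everywhere, of which 3 were among the calls. Of the 27, 6 were higher in root and 8 in leaf, against 27.2% and 24.2% of all probe sets. The list's shares were 22.2% and 29.6%, near the 25.1% and 31.5% of named genes. As deposited, 10 were higher in root and 3 in leaf. THM6, a MYB factor, was at background in root and at -0.17, 0.20 and -0.35 in leaf, at least 16.6-fold higher (11-fold as deposited, adjusted p = 8.65e-06). The gene listed as MYB ran the opposite way, with -0.41, -0.49 and -0.38 in the root arrays and -4.26, -4.05 and -3.89 in the leaf arrays and a difference of 3.64 ± 0.12. Of 14 stress-related factors 8 were higher in root and 2 in leaf (median 0.65), against 27.2% and 24.2% of all probe sets. Uncentred, 12 higher in root and 2 in leaf passed it. CBF1, which turns on cold-response genes, differed by 2.30 ± 0.38 (adjusted p = 0.00367). WRKYIId-1 and WRKY2 differed by 1.03 ± 0.15 and 0.72 ± 0.13. EREB was the largest exception, at -2.96 ± 0.37.

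Of 10 ribosomal proteins and translation factors 3 were higher in root and none in leaf, and the differences ran from -0.27 to 0.60. As deposited 10 higher in root and 0 in leaf passed the test. For the lists of this paragraph, the shares over all probe sets were 27.2% higher in root, 24.2% in leaf and 48.6% not called. Of 14 cell-cycle and histone genes 10 did not pass the test (as deposited 7 higher in root and 0 in leaf passed it), among them CDKA1 at -0.35 (95% interval -0.79 to 0.10). The largest difference of that list was CYCD3, a D-type cyclin, at 1.31 ± 0.41 (adjusted p = 0.037), which did not pass the test without any 1 root array or without leaf array 1 or 2 (adjusted p from 0.0508 to 0.101) and was 0.87 without leaf array 1. Of 18 protein kinases and phosphatases 11 did not pass it (as deposited 12 higher in root and 0 in leaf passed it), and the largest difference was that of SNF4, a subunit of the energy-sensing SnRK1 kinase (1.39 ± 0.10). Of 9 heat shock proteins 4 were higher in root, 1 in leaf and 4 did not pass the test (as deposited 7 higher in root and 0 in leaf passed it). The largest difference was HSP21, a small heat shock protein of chloroplasts, at 2.11 ± 0.72 (adjusted p = 0.0473), although its root and leaf values overlapped. HSP21 was 2.97 without root array 2, and did not pass the test without any other single array (adjusted p from 0.0711 to 0.142).

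Members of the same family with opposite organ preference recurred across these lists. The clearest pairs had a member at background in one organ, such as TPX2 and CEVI-1 among peroxidases, ST1 and ST2 among sulfate transporters (ST2 above background on 2 of 3 root arrays), and SBT1 and sbt4a among subtilisin-like proteases. SBT1 had 1.12, 0.67 and 0.88 in the root arrays and -3.01, -2.70 and -1.21 in the leaf arrays and was higher in root by 3.20 ± 0.46 (adjusted p = 0.00201). Members that did not pass the test lay between, such as the peroxidase TPx1 at 0.065 (95% interval -0.16 to 0.29). The families were picked after their values were seen, so their number says nothing of how common such pairs are.

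**Figure D5:**
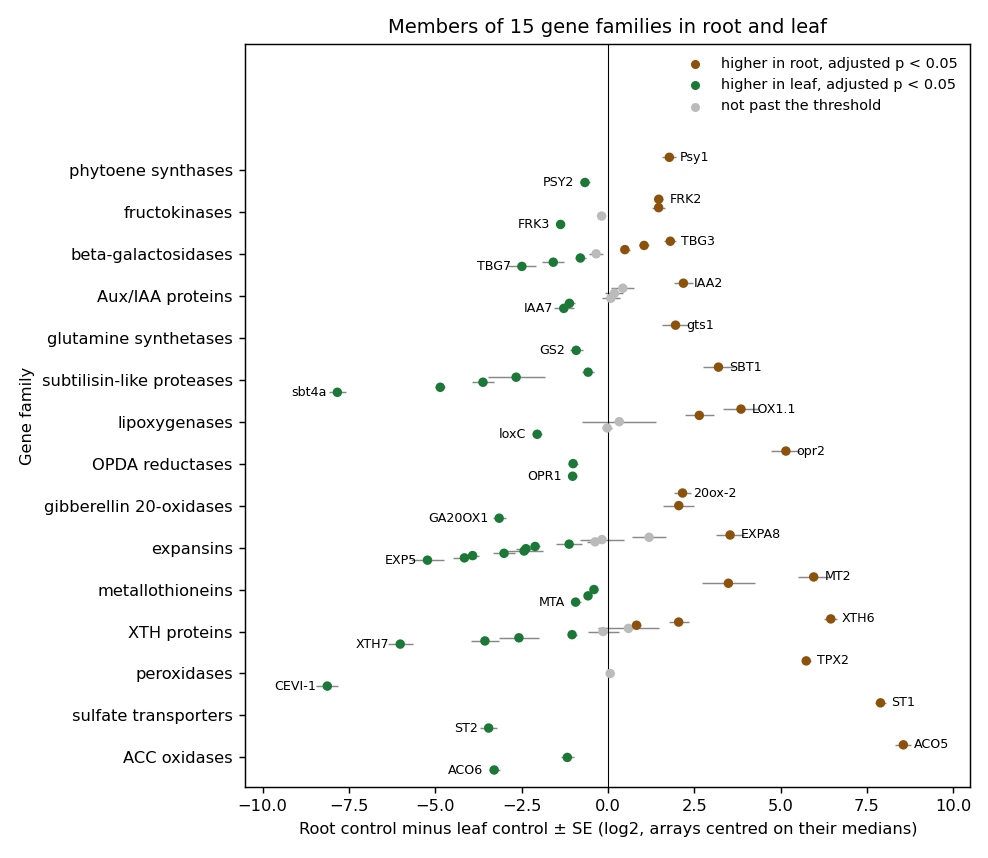
Root minus leaf difference (log2, horizontal axis) ± SE of the named members of 15 gene families (vertical axis), with the lowest and highest member of each labelled. Brown and green points passed an adjusted p of 0.05 with the higher level in root or leaf, and grey points did not. Each family, picked after its values were seen, has members on both sides of 0 after centring.

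On the arrays titled Cd, root and leaf differed at 3405 probe sets (33.9%). Of the 5159 probe sets called without Cd, 4802 (93.1%) had the same direction there and 2732 (53%) also passed the test. TIP kept a large root excess of 6.81. ST1 and FER had fitted root excesses of 8.69 and 7.57. Their mean levels on the leaf arrays titled Cd, -4.35 and -4.07, lay around the background there (-4.20, -3.99 and -3.84), so these 2 values are no measured sizes. PR1b1 and P4 differed there by -1.48 and -0.64, beside -6.19 and -6.07 without Cd, and the difference between these contrasts did not pass the test (adjusted p = 0.0517 and 0.109). The difference between the organ contrasts passed the test at 82 probe sets (0.817%).

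The annotation gives a symbol to 909 of the 10038 probe sets (9.06%). Among unnamed probe sets, 141 were at least 8-fold higher in root and 183 in leaf. The most extreme unnamed probe sets differed by 8.43 in favour of root and by -9.13 in favour of leaf.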

How the data were processed

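Transcripts of 12 tomato samples were measured on single-channel Affymetrix arrays, of which 6 are reported. The authors deposited log2 values, from 1.55 to 13.29, for each probe set. MAS5 and RMA are named in the submitters' processing notes, with neither version nor role. What was done to make the values is otherwise not given in the sources used here. No array scanner values were used. The array holds 10209 probe sets, of which 171 are controls.

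Each array was centred on its own median, and root control minus leaf control was fitted over the 6 control arrays with limma 3.58.1 in R 4.3.3 (prior degrees of freedom 2.46, residual 4). P-values are two-sided and adjusted over 10038 probe sets by the Benjamini-Hochberg method. Tables were written in pandas 2.3.3 and figures in matplotlib 3.10.9, under Python 3.11.15. The fitting code was tested on simulated data. Precision is limited by the number of arrays.

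Gene names are those of the platform annotation, which is old. The probe set with the highest mean stood for each of the 82 genes with several, and PRO1, shared by 2 gene records, was left out. For 885 of 909 named probe sets the gene record was found in a current gene table, which supplied synonyms. The rule for named genes takes the 15 largest differences in each direction, past the threshold and without overlap between the organs, and up to 6 members of each of 37 gene lists by size of difference. Further genes were chosen once their values were known, and 4 lists (amino acid transporters, GABA shunt, 14-3-3 proteins, phospholipase D) were added once the annotation had been read. The members and lists were chosen with earlier results of these data known, and counts over lists are descriptions.

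Alternatives were other scalings, quantile normalization, all 12 arrays, a background filter, array weights, a test against a 2-fold difference, a replicate block and leaving out each array. Equal array numbers were checked as pairs by correlating deviations from the group means, which gave -0.0011, -0.097 and -0.11. Pairs of unequal number gave -0.088 to 0.13. With 3 arrays an organ this cannot decide whether equal numbers share a plant or batch, and the main fit left them unpaired.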

Additional observations from a re-analysis of the deposited data

Results flagged for a closer look

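The organ difference itself differed between the control arrays and the arrays titled Cd for 5 genes named above, by the interaction term of a 12-array limma fit. The control difference less the Cd difference was 5.69 for ACO5 (8.56 without Cd and 2.87 with it, adjusted p = 0.00108). ACO5 was at background on all 3 leaf control arrays, where its organ difference has only a lower bound of 8.33, so 5.69 is a fitted value and no measured size. It was 1.67 for ACO6 (-3.30 and -4.96, adjusted p = 0.0118) and -2.83 for SODCP.2 (-3.91 and -1.08, adjusted p = 0.00171). It was -3.95 for LOC544276 (-4.92 and -0.97, adjusted p = 0.0171). For EXP2 it was -4.16 (-3.92 and 0.24, adjusted p = 0.0144). The leaf arrays titled Cd carry a source label that says they were not treated, and the part of this in the values was not tested.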

How the results depend on the processing

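Counts of called probe sets moved most with the scaling and the null tested. As deposited, 6541 probe sets were higher in root and 1070 in leaf (85.9% of calls in root, against 53.0% after centring), and 2686 and 630 with a difference of at least 2-fold. A test against a 2-fold difference (limma's treat) called 780, of which 365 were higher in root and 415 in leaf. With the replicate number as a block the count was 4158, and whether the numbers pair the samples is not known. The other scalings, the fit of all 12 arrays, the background filter and array weights gave 4343 to 6250. Leaving out 1 array gave 3745 to 5103 calls, lowest without root array 1, 1921 to 2766 of them higher in root and 1824 to 2337 in leaf, and 819 to 944 and 1102 to 1297 at 2-fold. Of 161 named genes, 125 kept direction and side of the threshold under every alternative compared gene by gene. The test against a 2-fold difference was not compared in this way, nor was the background filter for genes it removes. Values with the opposite sign as deposited were CDKA1 0.25, CRY2 0.47, ETR4 0.58, EXP1 0.42, GluB 0.15, LEMT1 0.015, MT4 0.19, NP24-I 0.16, PCNA 0.57, PSBR 0.12, SODCC.1 0.50. Values with the opposite sign centred on the 75th percentile were ETR4 0.017, PCNA 0.0074. Values with the opposite sign with quantile normalization were SODCC.1 0.16. Values with the opposite sign with array weights were ETR4 0.021, EXP1 0.30, ME1 -0.046, PCNA 0.18, SODCC.1 0.031. With single arrays left out, these genes crossed 0, over ranges of CDKB2 -0.29 to 1.08, ETR4 -0.19 to 0.17, EXP1 -0.65 to 0.37, ME1 -0.038 to 0.20, PCNA -0.46 to 0.60, SODCC.1 -0.15 to 0.0028. Of the genes with an opposite sign under any setting, PSBR, LEMT1 and MT4 alone had passed the test. The cause was not tested. Signals at background limit the lower end, where folds are bounds, and 3 arrays an organ limit the rest.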

Other observations

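Of 5 phospholipase D genes, which release phosphatidic acid from membrane lipids, 2 (40%) were higher in root and 2 (40%) in leaf after centring. The shares of all probe sets were 27.2% and 24.2%, and those of named genes 25.1% and 31.5%. As deposited, 3 of the 5 were higher in root and 1 in leaf. PLDa2 differed by 0.94 ± 0.21 and PLDa3 by -1.07 ± 0.14 (limma, adjusted p = 0.0118 and 0.00164). HMGR, the reductase that commits carbon to sterols, was higher in root by 1.23 ± 0.14 (adjusted p = 0.00086). Arginine decarboxylase ADC, an entry to polyamines, was higher in root by 1.11 ± 0.19 (adjusted p = 0.00367). The subtilisin-like protease SBT2 was higher in leaf, with a difference of -3.62 ± 0.32 (adjusted p = 0.000333). Of the 7 14-3-3 proteins, adaptors that bind phosphorylated partners, 2 were higher in root, 1 in leaf and 4 did not pass the test, a root share near the 27.2% of all probe sets. As deposited, 6 higher in root and 0 in leaf passed it. The largest difference was tft10 at 0.80 ± 0.18.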
